A study of Oryza sativa with 12 samples.

Results

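Whole rice seeds lacking OsMFT1 were compared with wild-type seeds in plain water, without salt stress, by RNA-seq. The osmft1 water group held 3 libraries from seeds of an OsMFT1 knockout, and the WT water group held 3 libraries from seeds of Zhonghua 11, a japonica cultivar used as the wild type. Seeds of both genotypes had been surface-sterilised and stood on wet filter paper at 28 °C, with 15 h of light and 9 h of darkness a day. These 6 libraries were taken from a series of 12, in which the other 6 held the same genotypes in 300 mM NaCl. The labels do not state how the knockout was made, how many mutant lines it covers, when the seeds were collected or how far they had germinated. Nor do they tell if separate seed lots stood behind a group's libraries, so p-values measure only the spread between libraries, which may be technical.

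In the filled rice grain, starch and storage proteins lie in the endosperm, and the embryo with its scutellum and the surrounding aleurone stay alive. During germination the scutellum and aleurone secrete alpha-amylases that degrade starch, and gibberellin and sugar starvation raise amylase transcription while abscisic acid (ABA) opposes it. Messenger RNAs for storage proteins and for LEA (late embryogenesis abundant) proteins are laid down as the seed matures and decay after imbibition, and expansins, cellulose synthases and aquaporins then serve cell growth. OsMFT1 encodes a relative of the flowering signal FT, and its Arabidopsis counterpart, MOTHER OF FT AND TFL1, acts in the ABA and gibberellin control of germination.

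Expression was given as FPKM, the reads of a gene scaled to its length and to the read total of the library. The 6 libraries held 15134798 to 15688593 counted reads each. Of 35204 gene IDs, 20343 reached 1 FPKM in at least 3 of the 6 libraries and were tested on log2(FPKM + 1) with limma, and an ID was called at a Benjamini-Hochberg adjusted p under 0.05. Differences are on that log2 scale, on which changes of low genes come out smaller than they are. In all, 3590 IDs (17.6%) were called higher in osmft1 and 2022 (9.94%) lower, together 5612 (27.6%). Over the tested IDs the log2 differences had a median of 0.11. Scaling libraries by their median ratio moved that median to -0.01 and left 48.8% of the calls on the higher side, against 64.0% without it. The count of calls was 2386 without osmft1 replicate 1, 1944 without osmft1 replicate 2, 2199 without WT replicate 2 and 2587 without WT replicate 3.

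The targeted locus gave no check of the genotype labels. Os06g0498800, the locus of OsMFT1, stood at 0.672, 0.084 and 0.0826 FPKM in osmft1 water and at 0.0811, 0.583 and 0.251 FPKM in WT water. Both groups rested on a handful of reads and overlapped (log2 difference -0.04, exact permutation test, two-sided, p = 1, where 3 libraries against 3 cannot go below 0.1). At this depth no genotype difference could be detected there.

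The known loci fell into 22 lists of reserve, hormone, growth and stress genes, in which 183 loci could be named and were in the files. Another 48 candidate loci, further glutelins among them, had no name support in the gene table and were not used here. Of the 183 named loci, 154 passed the filter on low values and 29 did not. Of the 154, 27 (17.5%) were higher in osmft1, against 17.6% of all tested IDs, 31 (20.1%) were lower, against 9.94% of all tested IDs and 10.3% of tested Os loci, and 96 were not called. The lower calls number 30 without RAmy2A, which passed the filter through WT alone. The counts of each list below are to be read beside the same 17.6% and 9.94%. Members and lists were chosen with earlier results of these data known, so these shares describe the members and do not test them. In each of the 58 called members the 3 osmft1 libraries all lay on 1 side of the 3 WT libraries, as in 19 of the 96 not called. The share over all tested IDs was not counted, and a call itself favours such separation. Near-identical gene copies occur among the glutelins, dehydrins, Aux/IAA repressors and small heat shock proteins, and with no stated strand or multi-mapping rule their reads, and those of overlapping antisense genes, may be shared. These are whole seeds, so fewer cells of a type and less RNA per cell cannot be told apart.

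**Figure D1:**
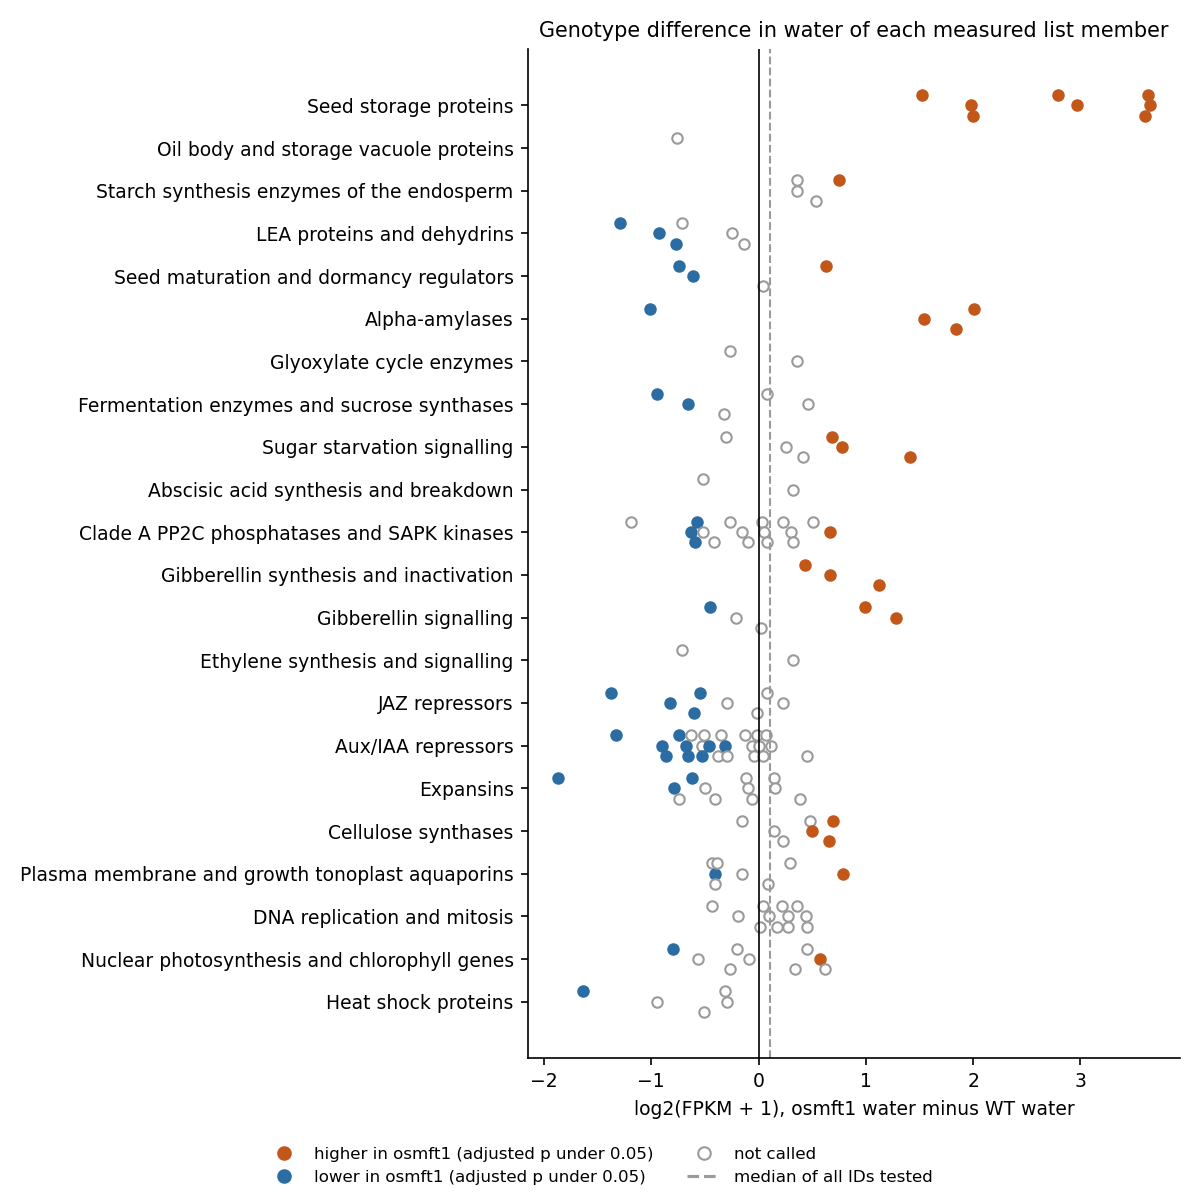
Log2(FPKM + 1) difference, osmft1 water minus WT water, of each of the 154 measured list members, with 1 row per list. Filled points were called in limma (27 higher, 31 lower), open points were not, and the dashed line marks the median of all tested IDs, 0.11. The points farthest to the right are storage proteins, while others of that list lie near the raised amylases. No Aux/IAA or JAZ member was called on that side.

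Transcripts of seed storage proteins were higher in osmft1 than in WT at every named locus measured. All 8 named loci, 7 glutelins and the albumin RAG2, were called, at log2 differences of 1.52 to 3.65. The list's median log2 difference was 2.88, against 0.11 for all tested IDs. The 8 loci together took 0.0754, 0.0406 and 0.0294% of the reads in the osmft1 libraries and 0.00364, 0.00348 and 0.00373% in the WT libraries (exact permutation test, two-sided, p = 0.1, the smallest that 3 against 3 allows). Their share was small in both genotypes, and osmft1 replicate 1 held the most.

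RAG2 (Os07g0214300), a seed albumin of the alpha-amylase and trypsin inhibitor family, was the most abundant of them. It had 437, 255 and 159 FPKM in osmft1 water, against 19.9 ± 1.86 FPKM in WT water (mean ± SD, n = 3; log2 difference 3.65, SE 0.32, limma adjusted p = 0.00167). The lowest osmft1 library stood far above the highest WT library, while the osmft1 libraries spread over a wider range than the WT libraries. The acidic and basic chains of glutelins form the main protein store of the rice endosperm. GluA2 (Os10g0400200) had 65.8, 39.0 and 27.9 FPKM in osmft1 water, against 3.22, 2.04 and 2.17 FPKM in WT water (log2 difference 3.63, SE 0.30, limma adjusted p = 0.00132). GluA1 (Os01g0762500) had 88.7, 43.3 and 33.7 FPKM in osmft1 water, against 2.96, 2.96 and 3.95 FPKM in WT water (log2 difference 3.60, SE 0.32, limma adjusted p = 0.00184). GluB2 (Os02g0249600) had 39.8, 17.5 and 17.3 FPKM in osmft1 water, against 2.43, 1.68 and 2.1 FPKM in WT water (log2 difference 2.97, SE 0.31, limma adjusted p = 0.00289). In these 4 genes, as in the other glutelins (GluA3, GluB4, GluB5 and GluD1, with log2 differences of 1.52 to 2.79), replicate 1 was the highest osmft1 library. The 8 calls held in every alternative setting run and without any 1 library.

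Other transcripts of grain filling gave 1 call among 5 measured. Among 4 measured starch synthesis genes, ISA1 (Os08g0520900), a debranching enzyme of amylopectin synthesis, was higher in osmft1. It had 35.3, 33.4 and 35.0 FPKM in osmft1 water and 21.0, 20.2 and 19.2 FPKM in WT water (log2 difference 0.75, SE 0.10, limma adjusted p = 0.00529), with groups well apart. AGPS2, SSI and BEI were not called, at log2 differences of 0.36 to 0.54. GBSSI, the starch synthase of amylose, and SSIIa were under the filter, GBSSI at 1.09, 0.494 and 1.02 FPKM in osmft1 water and 0.382, 0.0735 and 0.0739 FPKM in WT water. OLE18, an oleosin of oil bodies, had 7.28, 3.91 and 4.33 FPKM in osmft1 water and 8.10, 16.2 and 5.72 FPKM in WT water. Its groups overlapped and it was not called, and the storage vacuole channels TIP3;1 and TIP3;2 stayed under 1 FPKM in both genotypes. The summed level of 4 endosperm markers (GluA1, GluA2, GluB4 and GBSSI) ran from 67.7 to 168 FPKM in osmft1 and from 6.0 to 7.5 FPKM in WT, but it is mostly GluA1 and GluA2 and so repeats the storage protein difference. Whether the amount of endosperm RNA in the samples bears on these differences was not tested.

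LEA and dehydrin transcripts, whose proteins protect the dry embryo, were lower in osmft1 where they were called. Of 6 measured genes 3 were lower in osmft1, none was higher and 3 were not called, with a list median of -0.74. Em (Os05g0349800), a classic LEA protein of the mature embryo, had 47.8, 38.7 and 29.6 FPKM in osmft1 water and 93.1, 127 and 71.1 FPKM in WT water (log2 difference -1.29, SE 0.24, limma adjusted p = 0.0127). The groups did not overlap. The dehydrin Rab16C had 18.2, 17.6 and 11.4 FPKM in osmft1 water and 34.4, 31.7 and 25.9 FPKM in WT water, a log2 difference of -0.93 (limma, adjusted p = 0.0166). Rab16B had 13.0, 12.5 and 10.9 FPKM in osmft1 water and 26.2, 23.7 and 15.6 FPKM in WT water, a log2 difference of -0.77 (limma, adjusted p = 0.0280), a call lost when any library but WT replicate 3 was left out. The most abundant dehydrin, Rab16A, had 166, 126 and 108 FPKM in osmft1 water and 186, 224 and 91.0 FPKM in WT water, and its groups overlapped. LEA3 overlapped as well, at a log2 difference of -0.14. Em alone of this list was still called without WT replicate 2 (Rab16C 0.0537, Rab16B 0.0863) and with the length trend removed (0.0367 for Em, 0.0779 for Rab16C and 0.146 for Rab16B).

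Regulators of maturation and dormancy were mixed, with 1 higher, 2 lower and 1 not called of 4 measured and a list median of -0.29. MFT2 (Os01g0111600), the rice paralogue of the knocked-out gene, was among the most abundant transcripts described here and was lower in osmft1. It had 1190, 1600 and 1618 FPKM in osmft1 water and 2529, 2217 and 2565 FPKM in WT water (log2 difference -0.74, SE 0.15, limma adjusted p = 0.0155), and the groups did not overlap. bZIP23 (Os02g0766700), an ABA-responsive transcription factor, was lower, with 9.69, 8.16 and 8.17 FPKM in osmft1 water and 14.0, 15.3 and 12.1 FPKM in WT water (log2 difference -0.61, limma, adjusted p = 0.0213). VP1 (Os01g0911700), the rice counterpart of ABI3 and an activator of seed maturation genes, was higher. It had 90.0, 78.8 and 69.6 FPKM in osmft1 water and 52.4, 56.6 and 43.6 FPKM in WT water (log2 difference 0.63, SE 0.14, limma adjusted p = 0.0189). TRAB1, which binds VP1 in ABA-regulated transcription, had overlapping groups. The MFT2 call was lost without WT replicate 3 (limma, adjusted p = 0.0506), that of VP1 without osmft1 replicate 1 or 2 or WT replicate 3 (0.0506 to 0.0618), and that of bZIP23 without osmft1 replicate 2 or 3 or WT replicate 2 (0.0529 to 0.0740).

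Alpha-amylase transcripts were higher in osmft1 at the abundant loci. RAmy1A, RAmy3D and RAmy3E rose, with a median of 1.84 over these 3. The fourth tested locus, RAmy2A, was called lower but passed the filter through WT alone, so that its direction was fixed by the filter, and the median with it was 1.69. The 5 loci in the files together took 2.99, 3.05 and 2.80% of all reads in osmft1 water and 0.802, 0.785 and 0.846% in WT water, a difference of 2.14 percentage points (exact permutation test, two-sided, p = 0.1, the smallest possible). Each osmft1 library gave more than 3 times the share of any WT library. Most of this was RAmy1A, at 1.97 to 2.17% of reads in osmft1 and 0.499 to 0.534% in WT.

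RAmy1A (Os02g0765600), the main gibberellin-induced amylase of the germinating grain, had 13891, 13910 and 12611 FPKM in osmft1 water, against 3200, 3401 and 3421 FPKM in WT water. The log2 difference was 2.01 with an SE of 0.12 (limma adjusted p = 0.00073), and the libraries of each group lay close together. RAmy3E (Os08g0473600) had 4748, 5057 and 4832 FPKM in osmft1 water, against 1764, 1469 and 1816 FPKM in WT water (log2 difference 1.54, SE 0.12, limma adjusted p = 0.00132). RAmy3D (Os08g0473900), known to be induced by sugar starvation, had 119, 144 and 113 FPKM in osmft1 water, against 29.6, 39.3 and 34.1 FPKM in WT water (log2 difference 1.84, SE 0.14, limma adjusted p = 0.00117). These 3 calls held without any 1 library. RAmy2A (Os06g0713800) had 0.385, 0.115 and 0.529 FPKM in osmft1 water and 2.30, 1.41 and 1.42 FPKM in WT water, from 10, 3 and 14 reads in osmft1 and 62, 37 and 37 reads in WT (log2 difference -1.01, limma, adjusted p = 0.0181). The call was lost without osmft1 replicate 2 (limma, adjusted p = 0.0625). RAmy3A was under the filter, at 4, 0.686 and 0.516 FPKM in osmft1 water and 0.195, 0.561 and 0 FPKM in WT water.

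**Figure D2:**
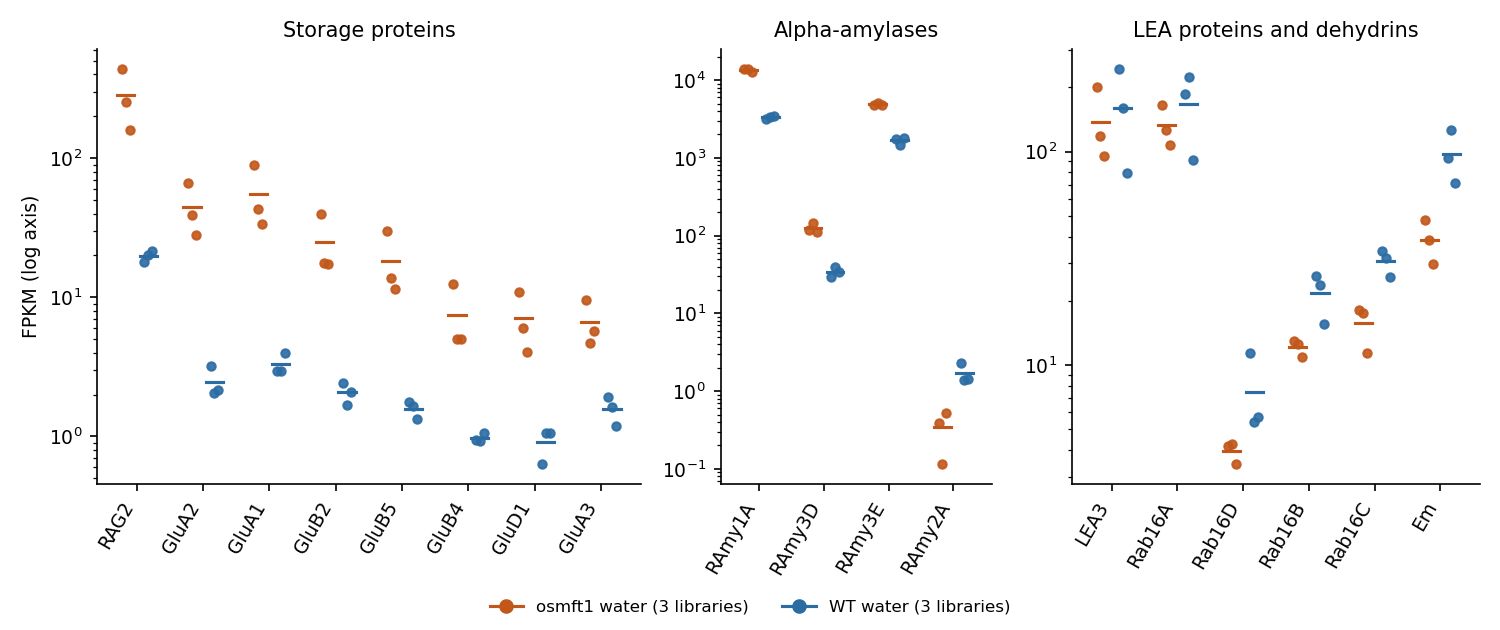
FPKM (log axis) of the tested storage protein, alpha-amylase, and LEA and dehydrin genes in the 3 osmft1 water libraries (left of each pair) and the 3 WT water libraries (right), with a bar at each mean. The storage protein groups and the RAmy1A, RAmy3D and RAmy3E groups are apart in every gene, and Rab16A and LEA3 overlap.

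The glyoxylate cycle, which turns stored oil into sugar, gave 0 calls of 2 genes in limma, 0 at an unadjusted p under 0.05 and 0 with voom. Malate synthase (MS) had 184, 155 and 143 FPKM in osmft1 water and 177, 248 and 164 FPKM in WT water, and isocitrate lyase (ICL) had 251, 200 and 134 FPKM in osmft1 water and 124, 162 and 159 FPKM in WT water, with overlapping groups in both. The markers of germinating aleurone and scutellum were RAmy1A, RAmy3D, ICL and MS, and their summed level, 13000 to 14400 FPKM in osmft1 and 3530 to 3850 FPKM in WT, is mostly RAmy1A and so repeats the amylase difference, while ICL and MS overlapped. That of 5 markers of mature embryo and aleurone (OLE18, Em, Rab16A, TIP3;1 and VP1) ran from 212 to 311 FPKM in osmft1 and from 211 to 423 FPKM in WT. The part of tissue make-up in the amylase difference was not tested.

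Of 6 genes of sugar signalling and transport 3 were higher in osmft1 and none was lower, with a list median of 0.55. SUT1 (Os03g0170900), a sucrose transporter that moves sugar out of the scutellum, had 298, 288 and 273 FPKM in osmft1 water, against 108, 117 and 97.7 FPKM in WT water (log2 difference 1.41, SE 0.10, limma adjusted p = 0.00111). The groups were far apart. SnRK1A (Os05g0530500), a kinase of the sugar starvation response, had 52.0, 42.4 and 40.2 FPKM in osmft1 water and 29.0, 29.3 and 19.7 FPKM in WT water, a log2 difference of 0.78 (limma, adjusted p = 0.0213) that lost its call without osmft1 replicate 1 or 2 (0.0687 and 0.0593). MYBS2 (Os10g0562100), known to repress amylase promoters, had 25.9, 26.2 and 28.2 FPKM in osmft1 water and 18.9, 16.1 and 14.2 FPKM in WT water, a log2 difference of 0.68 (limma, adjusted p = 0.0136). MYBS1, which activates them, was not called, at 15.4 ± 2.81 FPKM in osmft1 water and 19.3 ± 4.34 FPKM in WT water (mean ± SD, n = 3). CIPK15 and MYBS3 were not called either.

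The 2 measured sucrose synthases, which split sucrose for growing tissue, were lower. SUS1 (Os03g0401300) had 6.89, 10.7 and 8.49 FPKM in osmft1 water and 18.0, 13.3 and 22.0 FPKM in WT water (log2 difference -0.95, SE 0.22, limma adjusted p = 0.0208). SUS2 (Os06g0194900) had 8.05, 8.62 and 8.02 FPKM in osmft1 water and 15.1, 9.57 and 17.2 FPKM in WT water, a log2 difference of -0.66 (limma, adjusted p = 0.0491). Both sets of groups were apart, but SUS1 lost its call without osmft1 replicate 1 or WT replicate 3 (0.0650 and 0.0583) and SUS2 without any library but WT replicate 2 (0.102 to 0.135). ADH1, the alcohol dehydrogenase of fermentation, had 2924, 3332 and 3021 FPKM in osmft1 water and 3808, 2600 and 2527 FPKM in WT water and was not called, and ADH2 and PDC1 were not called either.

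Gibberellin synthesis genes were higher in osmft1 where they were measured. All 3 measured genes, KS1, KO2 and KAO, were called, with a list median of 0.67. The other 4 listed genes were under the filter in both genotypes: CPS1, GA20ox2 and GA20ox3 of synthesis, and EUI1, which inactivates gibberellin. The GA3ox genes of synthesis and the GA2ox genes of inactivation had no name support and were not used. KO2 (Os06g0570100), an ent-kaurene oxidase, had 34.7, 27.4 and 31.9 FPKM in osmft1 water, against 14.0, 12.9 and 14.7 FPKM in WT water (log2 difference 1.12, SE 0.13, limma adjusted p = 0.00347). Its lowest osmft1 library lay well above its highest WT library. KS1 (Os04g0611800), an ent-kaurene synthase, had 6.60, 5.67 and 6.34 FPKM in osmft1 water and 3.94, 3.56 and 3.14 FPKM in WT water, a log2 difference of 0.67 (limma, adjusted p = 0.0193). KAO (Os06g0110000), an ent-kaurenoic acid oxidase, had 24.6, 25.5 and 26.8 FPKM in osmft1 water and 17.6, 19.5 and 19.1 FPKM in WT water, a log2 difference of 0.43 (limma, adjusted p = 0.0238). The KAO call was lost under median-ratio scaling (0.0866) and upper-quartile scaling (0.0568). KAO also lost it without osmft1 replicate 2 or 3 or WT replicate 2 or 3 (0.0561 to 0.0777), and KS1 without osmft1 replicate 1 or 2 or WT replicate 2 or 3 (0.0512 to 0.0597).

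Of 5 gibberellin signalling genes 2 were higher, 1 was lower and 2 were not called. GAMYB (Os01g0812000), the transcription factor that activates amylase genes, had 53.7, 49.3 and 33.6 FPKM in osmft1 water and 19.8, 21.1 and 25.5 FPKM in WT water (log2 difference 0.99, SE 0.19, limma adjusted p = 0.0138). SPY (Os08g0559300), a repressor of gibberellin signalling, had 26.2, 16.1 and 14.2 FPKM in osmft1 water and 8.20, 6.85 and 5.78 FPKM in WT water (log2 difference 1.28, SE 0.23, limma adjusted p = 0.0124). The receptor GID1 (Os05g0407500) had 126, 114 and 123 FPKM in osmft1 water and 170, 181 and 148 FPKM in WT water (log2 difference -0.45, SE 0.11, limma adjusted p = 0.0234). In these genes the groups did not overlap, so an activator and a repressor rose while the receptor fell. The DELLA repressor SLR1 had 157, 119 and 121 FPKM in osmft1 water and 118, 149 and 124 FPKM in WT water, and the F-box gene GID2 had 231, 281 and 310 FPKM in osmft1 water and 307, 285 and 358 FPKM in WT water. Groups overlapped in both. GAMYB lost its call without osmft1 replicate 2 (0.0507), and GID1 without osmft1 replicate 1 or 2 or WT replicate 2 (0.0526 to 0.0860).

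ABA signalling genes gave few calls. Of 17 measured PP2C phosphatases and SAPK kinases, the repressors and effectors of ABA signalling, 1 was higher, 3 were lower and 13 were not called, with a list median of -0.10. The kinase SAPK10 (Os03g0610900) had 64.1, 57.5 and 60.2 FPKM in osmft1 water and 43.0, 39.7 and 31.4 FPKM in WT water (log2 difference 0.67, SE 0.13, limma adjusted p = 0.0151). The kinase SAPK5 had 36.0, 42.6 and 52.7 FPKM in osmft1 water and 60, 59.9 and 78.8 FPKM in WT water, a log2 difference of -0.59 (limma, adjusted p = 0.0390). SAPK3 was lower by a like amount (-0.57, limma, adjusted p = 0.0228), as was the phosphatase PP2C06 (-0.63, limma, adjusted p = 0.0443). These 4 had groups that did not overlap, yet no lower call was left without osmft1 replicate 2 or without WT replicate 2, and SAPK10 lost its call without osmft1 replicate 1 (0.0506). These 4 of 17 stand beside 27.6% called among all tested IDs. With the length trend removed, 1 gene of the list was called higher and 0 lower. With no filter on low values, or a filter over 12 libraries, 1 was called lower. The phosphatase PP2C68 had the largest difference of the list and was not called, at 3.52, 3.0 and 1.75 FPKM in osmft1 water and 5.57, 18.8 and 3.56 FPKM in WT water (log2 difference -1.19, SE 0.50, limma adjusted p = 0.110). Its groups were apart by a narrow margin, and WT replicate 2 stood far above the rest. SAPK7, the most abundant, had 89.4, 101 and 85.8 FPKM in osmft1 water and 102, 92.5 and 102 FPKM in WT water. The ABA synthesis gene ZEP1, at 3.71, 2.50 and 2.08 FPKM in osmft1 water and 1.99, 2.07 and 1.85 FPKM in WT water, was not called. ABA8ox2, an ABA 8'-hydroxylase, had 0.511, 0.571 and 0.946 FPKM in osmft1 water and 1.39, 1.73 and 1.08 FPKM in WT water (log2 difference -0.52, limma, adjusted p = 0.0852), and NCED3, ABA8ox1 and ABA8ox3 were under the filter. Of the measured ethylene genes, ACS1 had 0.637, 0.636 and 0.494 FPKM in osmft1 water and 1.49, 2.53 and 1.0 FPKM in WT water, and EIN2 overlapped. Neither was called in limma, while ABA8ox2 and ACS1, which passed the filter through WT alone, had unadjusted p under 0.05 and were called with voom.

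JAZ genes, which encode repressors of jasmonate signalling, were lower where they were called. Of 8 measured members 4 were lower, none was higher and 4 were not called, with a list median of -0.42. The share called lower among all tested IDs was 9.94%. JAZ10 (Os03g0181100) had 15.3, 12.5 and 12.1 FPKM in osmft1 water, against 31, 34.7 and 43.9 FPKM in WT water (log2 difference -1.38, SE 0.16, limma adjusted p = 0.00359). JAZ7 (Os07g0615200), the most abundant, had 447, 437 and 412 FPKM in osmft1 water, against 745, 722 and 846 FPKM in WT water (log2 difference -0.83, SE 0.10, limma adjusted p = 0.00447). In both genes the groups lay far apart and the call held without any 1 library. JAZ11 had 38.8, 44.9 and 46.2 FPKM in osmft1 water and 73.4, 66.3 and 58.6 FPKM in WT water (log2 difference -0.60, limma, adjusted p = 0.0161). JAZ12 had 41.1, 48.3 and 41.2 FPKM in osmft1 water and 73.8, 58.7 and 60.2 FPKM in WT water (log2 difference -0.55, limma, adjusted p = 0.0217). JAZ11 lost its call without osmft1 replicate 2 or WT replicate 2 (0.0509 and 0.0517), and JAZ12 without osmft1 replicate 1 or 3 (0.0657 and 0.0535) and with the length trend removed (0.2).

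Aux/IAA genes, auxin-induced repressors of auxin responses, were lower where they were called. Of 24 measured members 9 were lower, none was higher and 15 were not called, with a list median of -0.37. All tested IDs gave 9.94% lower. Among those not called IAA4, IAA15, IAA17 and IAA21 had differences above 0, at 0.04 to 0.45. IAA14 (Os03g0797800) had 9.60, 9.76 and 14.1 FPKM in osmft1 water, against 23.9, 24.1 and 42.4 FPKM in WT water (log2 difference -1.33, SE 0.25, limma adjusted p = 0.0131). IAA31 (Os12g0601400) had 54.5, 64.1 and 69.0 FPKM in osmft1 water, against 94.6, 156 and 108 FPKM in WT water (log2 difference -0.90, SE 0.19, limma adjusted p = 0.0170). IAA10 (Os02g0817600) had 13.0, 14.2 and 15.3 FPKM in osmft1 water, against 23.1, 26.2 and 30.3 FPKM in WT water (log2 difference -0.86, SE 0.13, limma adjusted p = 0.00832). Groups did not overlap in these 3 genes. IAA9 was lower by -0.74 on the log2 scale, and IAA6, IAA12, IAA19, IAA24 and IAA30 by -0.68 to -0.31. IAA21, at 97.7, 113 and 114 FPKM in osmft1 water and 106, 89.2 and 103 FPKM in WT water, overlapped, as did IAA1, IAA3, IAA5, IAA15 and IAA17. The count of 9 became 4 without osmft1 replicate 1, 2 without osmft1 replicate 2, 4 without osmft1 replicate 3, 6 without WT replicate 1, 5 without WT replicate 3 and 5 with the length trend removed.

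**Figure D3:**
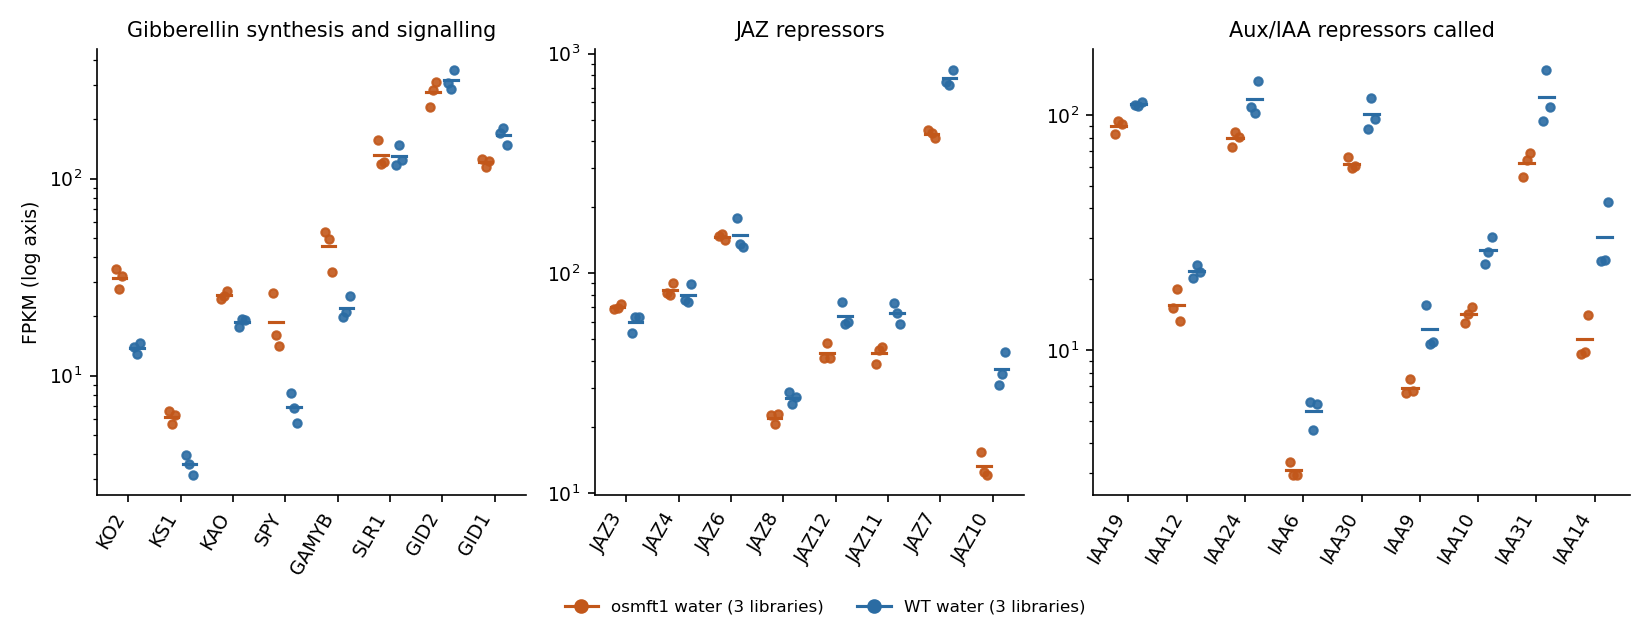
FPKM (log axis) of the tested gibberellin and JAZ genes and of the 9 Aux/IAA genes called, in osmft1 water (left of each pair) and WT water (right), with 1 point per library and a bar at each mean. KO2, GAMYB and SPY lie higher in osmft1, and GID1, JAZ7, JAZ10 and the 9 Aux/IAA genes lie lower.

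Genes that loosen the cell wall were lower where they were called. Of 12 expansins 3 were lower, none was higher and 9 were not called, with a list median of -0.27. Beside them stand 9.94% lower among all tested IDs. EXPA1 (Os04g0228400) had 7.33, 11.9 and 12.1 FPKM in osmft1 water, against 41.4, 28.0 and 54.6 FPKM in WT water (log2 difference -1.87, SE 0.27, limma adjusted p = 0.00668). EXPB4 (Os10g0556100), the most abundant expansin, had 296, 312 and 327 FPKM in osmft1 water, against 512, 512 and 594 FPKM in WT water (log2 difference -0.79, SE 0.10, limma adjusted p = 0.00522). Groups were apart in both. EXPA5 was low in both genotypes, with 2.66, 1.63 and 1.79 FPKM in osmft1 water and 3.11, 3.93 and 3.77 FPKM in WT water (log2 difference -0.62, limma, adjusted p = 0.0466), and lost its call without any library but osmft1 replicate 1 (0.0541 to 0.140). EXPB2 and EXPB3, tandem neighbours of EXPB4, were not called. EXPB2 ran from 46.9 to 116 FPKM in osmft1 water and from 79.0 to 173 FPKM in WT water. EXPA4, EXPA7 and EXPA10 also overlapped.

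Cellulose synthase transcripts, in contrast, were higher where they were called, but their length bears on the call. CESA1, CESA5 and CESA8, which take part in primary wall synthesis, were called among 7 measured genes, at log2 differences of 0.50 to 0.69. CESA1 (Os05g0176100) had 131, 109 and 103 FPKM in osmft1 water and 78.6, 69.7 and 62.0 FPKM in WT water (limma, adjusted p = 0.0138), and CESA8 (Os07g0208500) had 109, 104 and 95.3 FPKM in osmft1 water and 70.2, 62.7 and 61.8 FPKM in WT water (limma, adjusted p = 0.00819). Groups were apart in both, and CESA6, the most abundant, overlapped at 152, 166 and 165 FPKM in osmft1 water and 144, 131 and 164 FPKM in WT water. CESA5 lost its call without osmft1 replicate 1 or 2 or WT replicate 2 or 3 (0.0593 to 0.0732). Long genes as a class stood higher in osmft1. Among tested Os loci the median log2 difference was -0.16 in the shortest 25%, at a median implied length of 741 bases, and 0.42 in the longest 25%, at 2854 bases. After removal of that length trend from the libraries, none of the CESA genes was called higher (CESA1 0.22, adjusted p = 0.0955, CESA8 0.18, adjusted p = 0.189, and CESA5 0.02, adjusted p = 0.890, in limma) and 1 member of the list was called lower.

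Aquaporins gave 1 call in each direction among 8 measured, which does not set them apart from all tested IDs (17.6% higher, 9.94% lower). PIP1;3 (Os02g0823100), a plasma membrane water channel, had 252, 349 and 422 FPKM in osmft1 water and 149, 195 and 247 FPKM in WT water (log2 difference 0.79, SE 0.23, limma adjusted p = 0.0424). PIP2;1 (Os07g0448800), the most abundant, had 1358, 1541 and 1618 FPKM in osmft1 water and 1870, 1906 and 2225 FPKM in WT water (log2 difference -0.41, SE 0.12, limma adjusted p = 0.0444). The groups were apart, the 2 PIP1;3 groups narrowly. Both calls were fragile: PIP1;3 lost it without osmft1 replicate 2 or 3 or WT replicate 1 or 2 (0.0892 to 0.111) and under both other scalings (0.0877 and 0.106), and PIP2;1 whichever library was left out (0.0531 to 0.144) and under upper-quartile scaling. PIP1;1 had 970, 1175 and 1277 FPKM in osmft1 water and 1032, 1018 and 1158 FPKM in WT water and was not called.

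**Figure D4:**
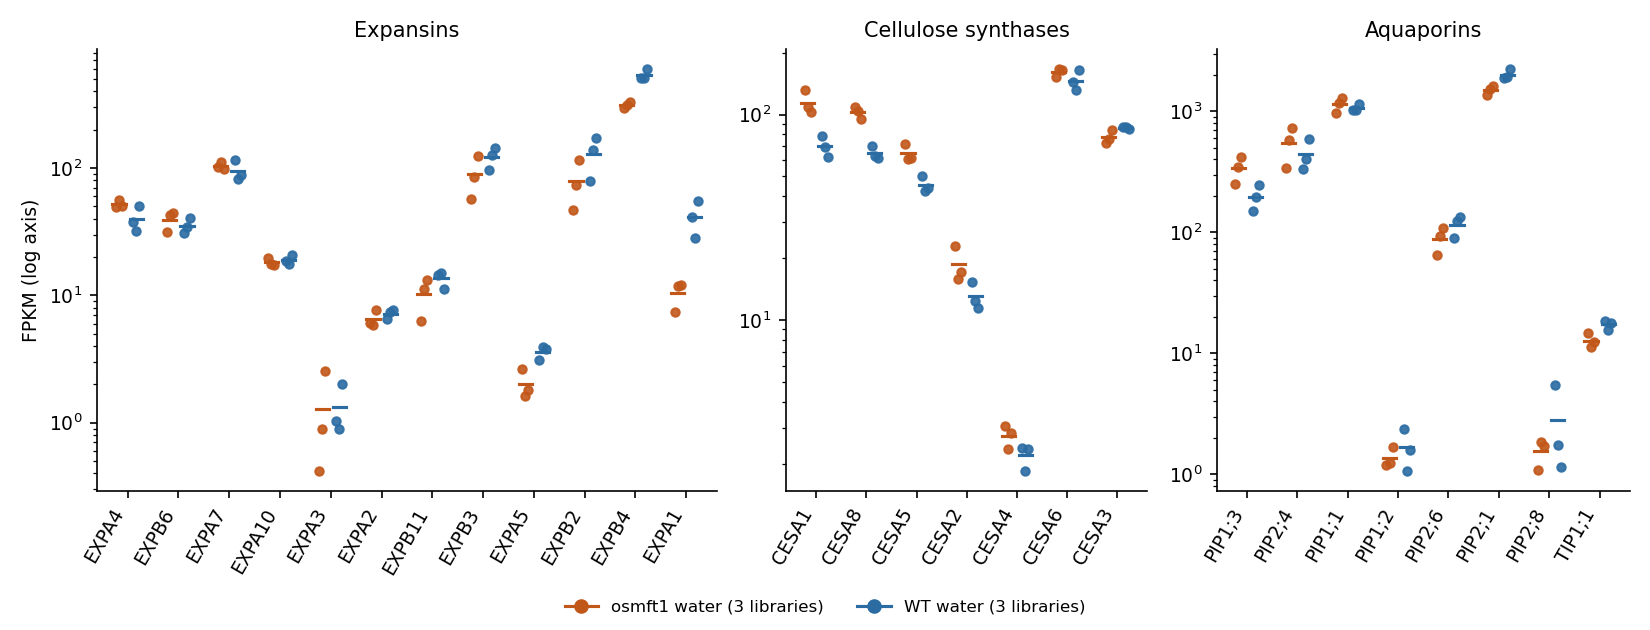
FPKM (log axis) of the tested expansin, cellulose synthase and aquaporin genes in osmft1 water (left of each pair) and WT water (right), with 1 point per library and a bar at each mean. EXPA1 and EXPB4 lie lower in osmft1, CESA1, CESA5 and CESA8 higher, and most others overlap.

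Cell division genes gave no detectable difference. Of 12 genes of DNA replication and mitosis limma called 0, 2 of them (PCNA and MCM2) had an unadjusted p under 0.05, and 0 were called with voom on recovered reads. PCNA, the replication clamp, had 144, 157 and 206 FPKM in osmft1 water and 195, 222 and 266 FPKM in WT water (log2 difference -0.43, limma, adjusted p = 0.0877). The mitotic cyclin CYCB1;1 had 7.24, 12.7 and 18.1 FPKM in osmft1 water and 3.52, 28.7 and 12.1 FPKM in WT water, and CDKB2;1 had 35.4, 44.2 and 50.9 FPKM in osmft1 water and 15.6, 75.3 and 46.4 FPKM in WT water. In these mitotic genes WT replicate 1 was lowest and WT replicate 2 highest, so the osmft1 libraries lay inside the WT spread. PCNA was called lower without osmft1 replicate 3 (0.0416), the osmft1 library that overlapped WT, so leaving it out favours a call.

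Among 9 genes of chlorophyll and light harvesting, 1 was higher, 1 was lower and 7 were not called. Beside 17.6% higher and 9.94% lower among all tested IDs, these counts do not set the list apart. PORB (Os10g0496900), a light-dependent protochlorophyllide reductase, had 4.35, 6.12 and 7.34 FPKM in osmft1 water and 8.84, 11.0 and 13.2 FPKM in WT water, a log2 difference of -0.80 (limma, adjusted p = 0.0305). CAO1 (Os10g0567400), which makes chlorophyll b, had 33.1, 31.8 and 33.6 FPKM in osmft1 water and 24.0, 20.2 and 21.5 FPKM in WT water, a log2 difference of 0.57 (limma, adjusted p = 0.0138). The light-harvesting gene CAB1R had 48.6, 59.9 and 68.2 FPKM in osmft1 water and 57.5, 97.7 and 116 FPKM in WT water and was not called, although its groups met only at WT replicate 1. Without that library it was called lower (log2 difference -0.85, limma, adjusted p = 0.0181), but leaving out the library at which the groups met favours a call. PORB lost its call without osmft1 replicate 1 or 2 or WT replicate 2 or 3 (0.0757 to 0.0913), and CAO1 with the length trend removed (0.0792).

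Of 5 heat shock protein genes 1 was lower, beside 9.94% of all tested IDs. HSP16.9A (Os01g0136100), a small cytosolic chaperone, had 43.4, 49.9 and 46.1 FPKM in osmft1 water and 298, 98.8 and 106 FPKM in WT water (log2 difference -1.64, SE 0.38, limma adjusted p = 0.0220). WT replicate 1 stood far above the other WT libraries here and in HSP16.9B, HSP17.4 and HSP17.9A, whose groups overlapped. The HSP16.9A call was lost without osmft1 replicate 1 or 2 (0.0753 and 0.0598), with the length trend removed (0.0517) and with no filter on low values (0.0551).

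The lists, chosen with earlier results of these data known, were also read by stage. Storage protein, oil body, starch synthesis, LEA and maturation genes are known to be abundant in the maturing or dry seed, and amylase, glyoxylate, expansin, cellulose, aquaporin, division and photosynthesis genes in the growing seedling. Of 23 measured dry-seed genes 10 (43.5%) were higher and 5 (21.7%) lower in osmft1, against 17.6% and 9.94% of all tested IDs, with a median log2 difference of 0.36. The 8 storage proteins made up most of the higher calls, and of the other 15 genes 2 were higher and 5 lower, with a median of -0.25. Of 54 measured seedling genes 8 (14.8%) were higher and 6 (11.1%) lower, with a median of 0.09, near that of all tested IDs. The 6 lower calls include RAmy2A, whose direction was fixed by the filter. Among the seedling genes the amylases and cellulose synthases were called mainly higher and the expansins lower. With the length trend removed, 0 cellulose synthases were called higher and 1 lower. In that setting 3 amylases were still called higher and 3 expansins lower. Neither set moved in 1 direction. No time course was measured, and a difference in stage and an effect of the genotype at 1 stage cannot be told apart.

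The salt libraries gave a second view of the same lists. In LEA and dehydrin genes the mean log2(FPKM + 1) was 4.61 to 5.18 in osmft1 water and 5.09 to 5.93 in WT water, and it was 8.14 to 8.65 in osmft1 salt and 8.75 to 9.69 in WT salt. In division genes it was 3.73 to 3.97 in osmft1 water and 3.14 to 4.12 in WT water, and 1.28 to 2.31 in osmft1 salt and 0.97 to 1.06 in WT salt. On both lists every water library lay on 1 side of every salt library. In division genes the spread within water was wider than the step from the lowest water library to the highest salt library. In storage proteins, in contrast, the mean was 4.10 to 5.29 in osmft1 water, above all other libraries, which ran from 2.93 to 3.52 in osmft1 salt, 1.77 to 1.84 in WT water and 2.1 to 2.66 in WT salt. The labels give no stage, so salt and stage cannot be told apart in these samples.

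**Figure D5:**
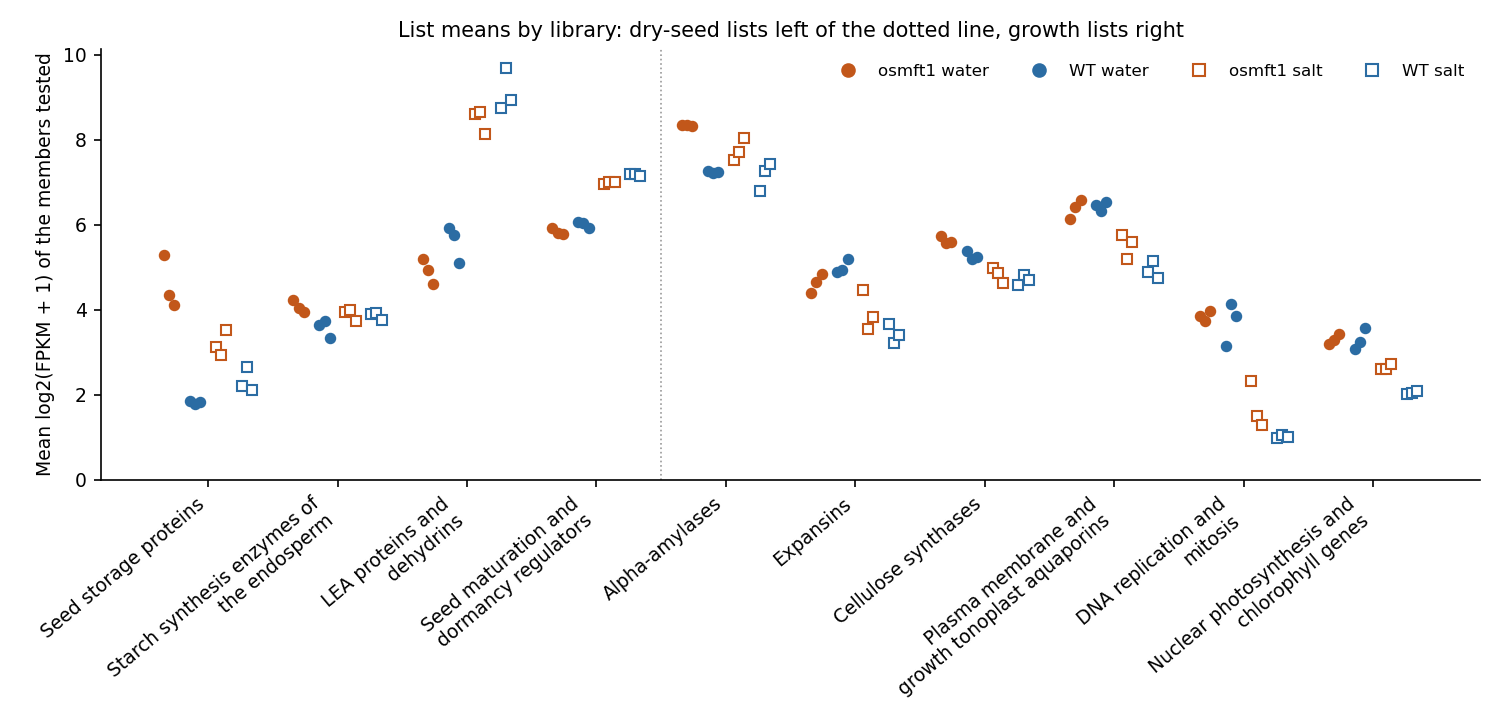
Mean log2(FPKM + 1) of the tested members of 10 lists in each library, for osmft1 water, WT water, osmft1 salt and WT salt from left to right within a list, with dry-seed lists left of the dotted line and growth lists right of it. In water osmft1 lies above WT in storage proteins, starch synthesis genes, amylases and cellulose synthases, and below WT in expansins. LEA, aquaporin, division and photosynthesis genes overlap.

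Over all IDs, the 2 largest rises and falls among calls with at least 10 FPKM in the higher group carried no name in the sources used here. Os10g0344800 had 58.2, 27.9 and 46.9 FPKM in osmft1 water, against 0.0579, 0 and 0.0598 FPKM in WT water (log2 difference 5.39, limma, adjusted p = 0.000328). Os07g0413800 had 1.46, 3.15 and 1.13 FPKM in osmft1 water, against 10.1, 51.4 and 29.0 FPKM in WT water (log2 difference -3.21, limma, adjusted p = 0.00966). The separation of the groups in both genes followed from that choice. Os10g0344800 passed the filter on low values through osmft1 alone, so its direction was fixed by the filter. The short IDs EPlOSAG00000022741 (5.19) and EPlOSAG00000015368 (-3.32) completed the set.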

How the data were processed

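Per the labels' protocols, seed RNA went into NEBNext Ultra libraries. Each deposited file lists 35204 IDs with 1 value each and names no unit. The deposited values were read as FPKM, because those of an ID are whole multiples of 1 step that differs between IDs. These steps gave whole reads within 0.003 for 100% of values and totals of 14379728 to 15688593 reads over 12 libraries, and "read" may mean fragment. Tools in the submitters' processing notes, unordered and without their roles, are HTSeq 0.6.0, HISAT2 2.1.0 and Bowtie2 2.2.3, and the build is IRGSP-1.0. No source used here gives the annotation release or the strand setting.

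Groups came from sample titles. limma 3.58.1 (R 4.3.3; empirical Bayes with a variance trend) was fitted to the 6 water libraries on log2(FPKM + 1), pseudocount 1, with 4 residual degrees of freedom and Benjamini-Hochberg adjustment over 20343 IDs. Exact permutation tests served for single values. Scripts were tested on simulated data. Replicates differed beyond sampling noise (chi-square per degree of freedom 8.12 to 25.4), so none was merged as 1 library deposited more than once; this does not show separate RNA samples. On the first principal component (62.3% of variance) osmft1 libraries lay at -65.7 to -26.5 and WT libraries at 27.4 to 56.4.

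The files carry no gene names. Names of 235 loci were written from published knowledge and kept for 187 whose name occurs in the RefSeq gene table of assembly ASM3414082v1 on the same chromosome and in the same order; 184 of these, with OsMFT1, are in the files. The table does not pair names with these IDs directly. The trimming used names only but was done after values were seen. Members and lists were chosen with earlier results of these data known. Named are, per list, up to 4 called members with the largest difference and the most abundant member, with further members chosen after their values were seen. The contrast of water with salt came from a limma fit of all 12 libraries over 22017 IDs and was added after values were seen.

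Alternatives were a pseudocount of 0.1, no filter or a filter over 12 libraries, a 12-library fit, library weights, 2 other scalings, a replicate block, rescaling without the 50 most abundant IDs, a 2-fold threshold, removal of the trend on implied length (20 bins), voom on recovered reads, Os loci only and leaving out each library. Tables and plots used Python 3.11.15, pandas 2.3.3, numpy 2.4.6 and matplotlib 3.10.9.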

Additional observations from a re-analysis of the deposited data

Results flagged for a closer look

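For 18 of the named members called in water, the difference between osmft1 and WT was not the same in water as in salt, by a limma test of the difference between the 2 differences over all 12 libraries (adjusted p under 0.05, called for 2872 or 13.0% of 22017 IDs). Among all 58 members called in water 21 passed this test, a count that the choice of members through their water difference helps to raise. Values below are log2 differences of osmft1 from WT in water, then in salt, and the water difference minus the salt difference. No explanation of these gaps was tested.

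Of 8 storage protein genes 6 differed more between the genotypes in water than in salt, and GluB4 (adjusted p = 0.0743) and GluD1 (0.0529) did not pass. RAG2 stood at 3.65 in water and 1.80 in salt, a gap of 1.86 (adjusted p = 0.0416). GluA2 stood at 3.63 and 1.13 (gap 2.50, adjusted p = 0.00877), GluA1 at 3.60 and 1.13 (gap 2.47, adjusted p = 0.0142) and GluB2 at 2.97 and 0.84 (gap 2.13, adjusted p = 0.0156). RAG2 was also called in salt (limma, adjusted p = 0.0190), with 84.0, 71.2 and 166 FPKM in osmft1 salt and 28.1, 37.8 and 20.8 FPKM in WT salt. GluA2 was called there as well (0.0417), and GluA1 (0.0650) and GluB2 (0.122) were not.

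Of the 27 members called higher in osmft1 in water, 11 had a gap past the threshold. Choosing members by a call in water favours a larger difference there. The difference was larger in salt in 3 of the 27, at 1.12 in water and 1.35 in salt for KO2, 0.43 and 0.81 for KAO, and 0.79 and 1.92 for PIP1;3. None of these 3 gaps was called (adjusted p = 0.367 for KO2 and 0.174 for KAO). Among the named members with a called gap, RAmy3D stood at 1.84 and 0.67 (gap 1.17, adjusted p = 0.0407), and SUT1 at 1.41 and 0.31 (gap 1.10, adjusted p = 0.0209). SAPK10 stood at 0.67 and -0.11 (gap 0.78, adjusted p = 0.0416), KS1 at 0.67 and -0.02 (gap 0.69, adjusted p = 0.0488), and SPY at 1.28 and 0.02 (gap 1.27, adjusted p = 0.0364). The SPY level was 9.51, 16.5 and 9.32 FPKM in osmft1 salt and 11.1, 11.9 and 10.8 FPKM in WT salt, so its groups overlapped there.

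The water and salt differences were not the same in 5 of 8 tested JAZ genes, of which 4 had been called lower in water. JAZ10 stood at -1.38 and 0.42 (gap -1.80, adjusted p = 0.00732), JAZ7 at -0.83 and 0.14 (gap -0.97, adjusted p = 0.0201), JAZ11 at -0.60 and 0.69 (gap -1.29, adjusted p = 0.0197) and JAZ12 at -0.55 and 0.46 (gap -1, adjusted p = 0.0102). JAZ8, not called in water (-0.29), stood at 1.32 in salt (gap -1.61, adjusted p = 0.0221). JAZ3 stood at 0.23 in water and 0.51 in salt and JAZ4 at 0.08 and 0.45, with no call on the gap (adjusted p = 0.163 and 0.113). Of the 4 called lower in water, JAZ12 alone was called higher in salt (limma, adjusted p = 0.0473), with 58.0, 55.4 and 62.3 FPKM in osmft1 salt and 37.4, 45.8 and 44.3 FPKM in WT salt.

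IAA14 stood at -1.33 and 1.26 (gap -2.59, adjusted p = 0.0389), but in salt 1 osmft1 library held 6.80 FPKM and the other salt libraries at most 1.47 FPKM. IAA31 stood at -0.90 and 0.67 (gap -1.57, adjusted p = 0.0110) and IAA10 at -0.86 and -0.14 (gap -0.72, adjusted p = 0.0352). EXPB4 stood at -0.79 and 0.65 (gap -1.44, adjusted p = 0.0187) and EXPA5 at -0.62 and 0.70 (gap -1.32, adjusted p = 0.0253), and none of these 5 was called in salt.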

How the results depend on the processing

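The count of 5612 calls was 3307 with no filter on low values, 9734 with library weights and 1593 at 2-fold or more, and 1944 to 5349 with 1 library left out. Members called higher numbered 27, or 14 at 2-fold or more, and 20 to 26 with 1 library left out. Members called lower numbered 31, or 20 with no filter and 6 at 2-fold or more, and 11 to 24 with 1 library left out. The other alternatives kept these counts within 1.5 times. Of 49 named calls, 22 held without any 1 library, and in 927 rechecks of named calls under the alternatives none changed sign and 159 fell short of the threshold. Members that were not called changed sign in 10 rechecks. ADH1 did so under median-ratio scaling (-0.07), upper-quartile scaling (-0.01) and without WT replicate 2 or 3, ranging from -0.03 to 0.27 with 1 library left out, and IAA21 under median-ratio scaling (-0.02). SAPK7 did so with library weights (0.03), and Rab16A with the length trend removed (0.04) and without WT replicate 2, ranging from -0.63 to 0.01 with 1 library left out. EIN2 (-0.16) and CESA6 (-0.33) did so with the length trend removed. OsMFT1, at -0.04 with all libraries, ranged from -0.25 to 0.11 with 1 library left out and was above 0 without osmft1 replicate 2 or 3 or WT replicate 2. The causes were not tested. Same-numbered osmft1 and WT libraries deviated together with correlations of 0.227, -0.0426 and 0.287, so the numbers were not taken as pairs. With the replicate number as a block 7227 IDs were called, and 29 members were higher and 40 lower. Loci of a few reads, OsMFT1 among them, were limited by depth.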
